A study of Mus musculus with 21 samples.

Results

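The enzymes described here join glutathione, glucuronic acid or sulfate to foreign and body-made compounds. They were taken by gene name from the array design: the cytosolic glutathione S-transferases (*Gst* alpha, kappa, mu, omega, pi and theta, with *Gstz1*), the microsomal enzymes (*Mgst*), the UDP-glucuronosyltransferases (*Ugt*) and the sulfotransferases (*Sult*). They are 54 of the 27373 gene names on the array, measured by 72 probes. RNA was taken from male C57Bl6/J mice, from their skin, liver and epididymal fat. The mice were either JNK1 knockout (KO), without the stress-activated kinase that *Mapk8* encodes, or wild type (WT). All mice were 45 weeks old and had eaten a high-fat diet from 5 to 44 weeks of age. The labels do not describe the JNK1 allele. Skin had 4 KO and 3 WT arrays, liver 3 KO and 3 WT, and fat 4 KO and 4 WT, of which 3 WT scanner files were used. Nothing in the labels ties an array to a mouse of its own, so p-values measure the spread between these samples only. The series title concerns metabolic protection and oxidative damage in the skin of mice without JNK1.

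Conjugation is the step in which a reactive or fat-soluble compound is made water-soluble enough to leave the cell through export pumps. Glutathione S-transferases join glutathione to electrophiles, among them the aldehydes that arise when lipids are oxidised. UDP-glucuronosyltransferases of the endoplasmic reticulum use UDP-glucuronic acid and act on bilirubin, steroids, bile acids and drugs, and cytosolic sulfotransferases use the sulfate donor PAPS and act on phenols, steroids and catecholamines. Liver is the organ best known for all of these reactions. Skin is known for making cholesterol sulfate in the outer epidermis.

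Values are log2 processed intensities relative to the 75th percentile of each array, so 0 is that percentile, and levels of different genes are not compared because each probe has its own brightness. On the 20 scanner files used, 38.9% to 57.2% of probes were well above background, and 26 to 45 of the 54 enzymes were. *Mapk8* was lower on all 4 KO fat arrays than on the 3 WT arrays used (difference -2.38, adjusted p = 0.0167 in limma) and on all 3 KO liver arrays than on the 3 WT arrays (-2.37, adjusted p = 0.216). In skin it was well above background on fewer than 3 arrays and was not tested. The summed scaled signal of keratinocyte markers was 2397 to 4377 on skin arrays, and that of hepatocyte markers 3778 to 6400 on liver arrays. Adipocyte markers summed to 1261 to 2264 on fat arrays and 847 to 1704 on skin arrays, so they set fat and skin apart from liver but not from each other. The scanner file labelled fat WT 2 resembled skin more than fat, with r across genes of 0.863 to 0.914 against skin arrays and 0.725 to 0.766 against the other fat arrays. It was left out, and its column of the deposited value table was used in a separate comparison of 4 KO with 4 WT columns.

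An enzyme was tested in a tissue when its probe was well above background on at least 3 arrays there. Of the 54, skin had 37 tested enzymes, liver 44 and fat 32, and 30 were tested in all 3 tissues. The 8 tested nowhere were *Gstt4*, *Sult2a3*, *Sult2a4*, *Sult2a5*, *Sult2a6*, *Sult3a1*, *Sult6b1* and *Ugt8a*, the last of which makes galactosylceramide for myelin. Since an enzyme high in a single tissue could pass through that tissue alone, counts over the tested enzymes are not counts over all members.

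The probes are 60 bases long, and some genes of these families are near-copies of each other. Among 2535 pairs of probes of different members, 1 pair shared a run of 20 bases, the longest found: *Gsta1* at chr9:78083844-78087325 (plus strand, a probe that spans an intron) and *Gsta2* at chr9:78181644-78181703 (minus strand), in mouse build mm9 as the files give it. The sequences are shown because the signals of this pair could be mixed, and capitals mark the shared run.
Gsta1: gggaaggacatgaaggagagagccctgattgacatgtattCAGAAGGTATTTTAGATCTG
Gsta2: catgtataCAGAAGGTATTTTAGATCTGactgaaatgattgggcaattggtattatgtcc
Every other pair shared fewer than 20 bases. Probes were compared with each other and not with the transcripts of other members, so binding to a near-copy was not tested for any probe. The probes for the enzymes with the widest gaps between tissues that were read across an exon junction are given next, for *Ugt2b36* (chr5:87495455-87509913, minus strand) and *Sult2b1* (chr7:52989476-52990556, minus strand).
Ugt2b36: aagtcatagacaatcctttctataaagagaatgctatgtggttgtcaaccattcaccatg
Sult2b1: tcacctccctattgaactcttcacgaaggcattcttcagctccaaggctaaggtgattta
The 3 *Ugt1a* genes of the list lie in 1 locus whose transcripts are known to share their last exons. The *Ugt1a6b* probe used here (chr1:90115472-90115531, plus strand) lies downstream of the probes of *Ugt1a1* (chr1:90108880-90108939) and *Ugt1a9* (chr1:89968031-89968090), so its signal may count transcripts of the other genes. Another *Ugt1a6b* probe (chr1:90003830-90003889) was well above background on 0 skin, 6 liver and 6 fat arrays, so the *Ugt1a6b* level given for skin rests on the probe used.

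**Figure D1:**
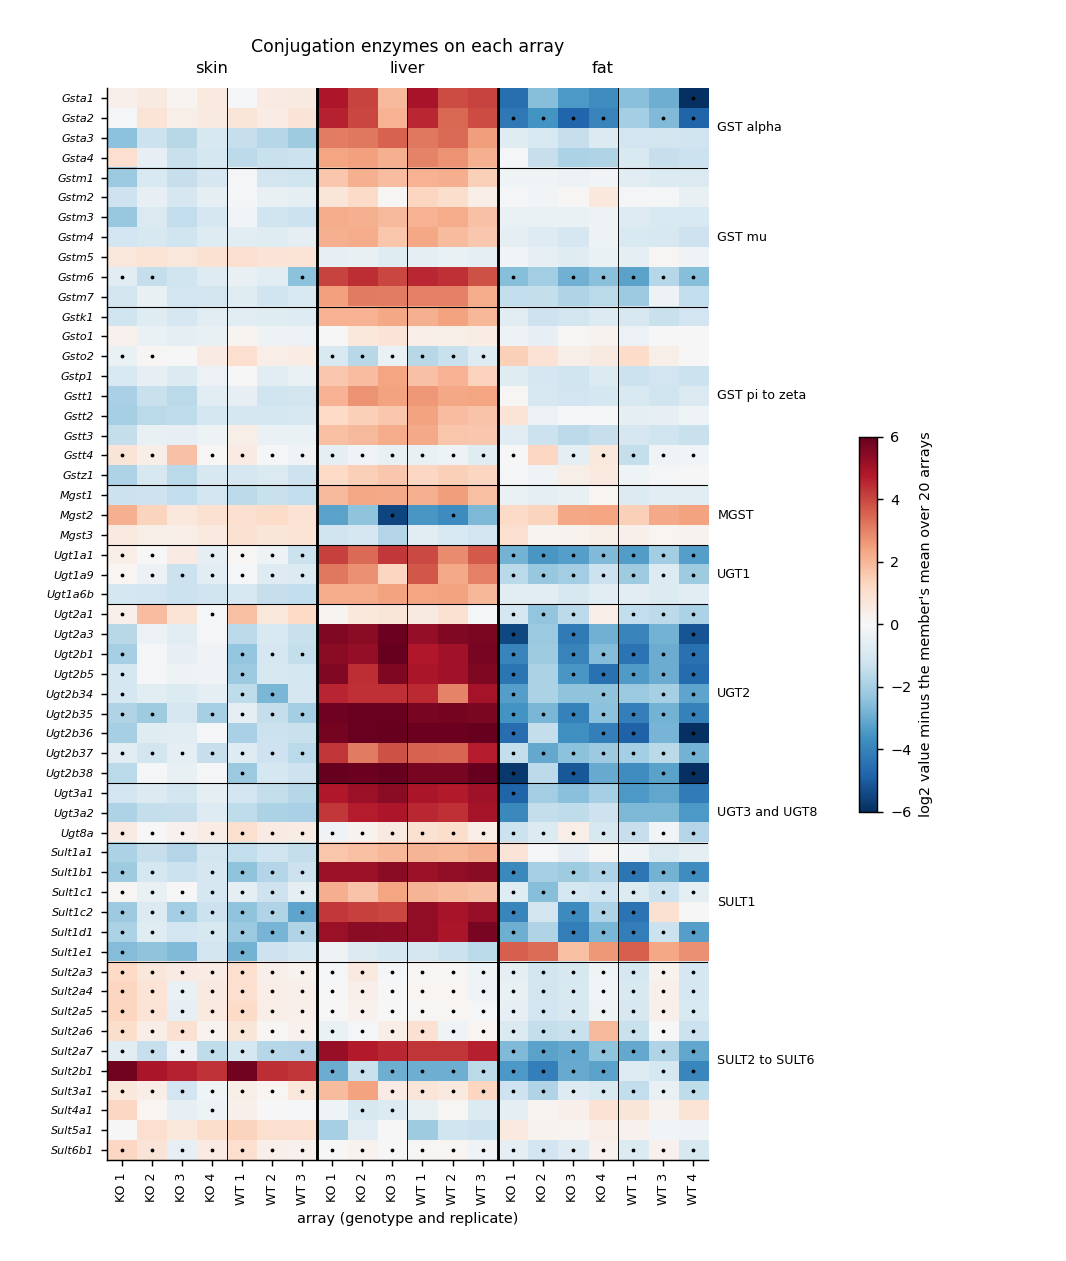
Log2 value of each of the 54 enzymes on the 20 scanner arrays used, minus that enzyme's mean over the arrays, from blue (lower) to red (higher), with KO left of WT in each tissue and a black dot where the probe was not well above background. Most rows are red on the liver arrays, while *Sult2b1* is red in skin and *Sult1e1* in fat.

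Most of the enzymes had their highest level in liver. In WT tissue, 36 of 46 enzymes tested were called higher in liver than in skin and 6 lower, where a call needed an adjusted p below 0.05 in limma and a log2 difference of at least 1. Of all genes tested, 24.4% were called higher and 23.2% lower in liver than in skin. Against fat, 37 of 45 enzymes were called higher in liver and 5 lower, beside 21.2% and 25.3% of all genes. Between skin and fat, 14 of 38 were called higher in skin and 1 lower, beside 19.5% and 20.7% of all genes. Calls in either direction made up 47.6% of all genes for liver against skin, 46.5% for liver against fat and 40.3% for skin against fat. Scaling moved the median of all genes by over 0.1: for liver against fat it was -0.04 as reported, 0.15 with normexp correction and -0.21 with quantile normalization, and for skin against fat -0.16, 0.12 and -0.29. Together 36 enzymes were called higher in liver than in both other tissues: all 4 alpha class, 6 of 7 mu class and 6 of 9 of the pi, theta, omega, kappa and zeta classes among the glutathione S-transferases, *Mgst1*, all 3 *Ugt1*, 8 of 9 *Ugt2*, both *Ugt3*, 5 of 6 *Sult1*, and *Sult2a7*.

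By measured difference to the nearer tissue, the first 5 liver enzymes were *Sult1d1*, *Ugt2b36*, *Ugt2b38*, *Sult1b1* and *Ugt2b35*. Their order is not settled, since 3 of them had no WT skin array above background, and their lower bounds lie below the 109-fold difference of *Ugt2a3*, which was above background on every WT skin array. *Sult1d1*, which in mice is known for the sulfation of catecholamines, had 3.06, 2.65 and 3.47 on WT liver arrays and was not well above background on any WT skin or fat array. It was at least 64.6-fold higher in WT liver than in WT skin and at least 140-fold higher than in WT fat (adjusted p = 5.98e-09 and 2.52e-09 in limma), where the bound is set by the background of the dim arrays. *Ugt2b36*, of the family that glucuronidates steroids and bile acids, had 6.05, 6.06 and 6.21 in WT liver, -1.79, -1.14 and -1.17 in WT skin and -4.70, -2.65 and -5.93 in WT fat. All WT liver values stood far above both other tissues, 178-fold above skin (log2 difference 7.47, SE 0.735). Only 1 of the 3 WT fat arrays was above background, so no size is given against fat. *Ugt2b38*, of the same family, had 5.27, 5.28 and 5.76 in WT liver against -2.64, -1.48 and -1.67 in WT skin and -4.14, -3.64 and -6.73 in WT fat.

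*Sult1b1*, which sulfates phenols and thyroid hormones, had 3.13, 3.29 and 3.36 in WT liver and was at least 74.3-fold higher there than in skin. *Ugt2b35* had 3.29, 3.36 and 3.23 in WT liver and was at least 76.1-fold higher there than in skin. Neither was well above background on any WT skin or fat array. Other enzymes were called with smaller differences and were well above background on all WT arrays of the 3 tissues. *Gstm1* averaged 9.62 ± 0.42 in WT liver, 6.91 ± 0.59 in WT skin and 6.97 ± 0.13 in WT fat, and *Gstp1* averaged 9.32 ± 0.34, 7.24 ± 0.31 and 6.33 ± 0.08 in the same order (SD, n = 3 each).

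A few enzymes had another order. *Sult2b1*, the enzyme that makes cholesterol sulfate, had 3.41, 2.06 and 1.91 in WT skin, and none of the WT liver arrays and 1 of the 3 WT fat arrays was well above background (-5.29, -5.31 and -3.98 in liver, and -3.13, -3.41 and -6.29 in fat). It was at least 60.5-fold higher in skin than in liver. It was also called higher in skin than in fat (adjusted p = 6.03e-07 in limma), with no size given because of the dim fat arrays. *Sult1e1*, the estrogen sulfotransferase, had -0.66, -0.93 and -1.30 in WT liver, -2.49, -0.88 and -0.72 in WT skin and 3.91, 2.65 and 3.07 in WT fat. All fat arrays lay above all others, and the liver minus fat difference was -4.17 (SE 0.53) and the skin minus fat difference -4.57 (SE 0.53). In KO fat *Sult1e1* had 3.93, 3.68, 2.14 and 2.96. Epididymis and testis markers varied widely among the fat arrays, with a summed scaled signal of 11.1, 13.3, 1.31 and 0.363 on the KO arrays and of 47.6, 39.7 and 1.13 on the WT arrays. The 3 fat arrays with the highest *Sult1e1* were all among the 4 with the highest sums. The remaining array of those 4, WT 3 (sum 39.7), had a *Sult1e1* of 2.65, below the 3.07 of WT 4 (sum 1.13). The part of these transcripts in the *Sult1e1* values was not tested.

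*Gstm5* averaged 3.39 ± 0.09 in WT skin, 2.03 ± 0.10 in WT liver and 2.29 ± 0.34 in WT fat, and *Sult5a1* averaged 1.73 ± 0.23, -0.89 ± 0.52 and 0.60 ± 0.25 in the same order (SD, n = 3 each). Both were called higher in skin than in liver and fat, but the margin over fat was thin. With normexp background correction the skin minus fat difference was 0.81 for *Gstm5* and 0.87 for *Sult5a1*, under the size required. Without fat WT 1 the *Gstm5* difference was 0.91, and the *Sult5a1* call was lost without skin WT 1 (0.99), fat WT 3 (1.06) or fat WT 4 (1.04). *Mgst2*, known for making leukotriene C4, *Mgst3*, a related microsomal enzyme, and *Gsto2*, of the omega class, were lower in liver than in both other tissues. *Mgst2* had -2.67, -2.95 and -1.86 in WT liver, where 2 of the 3 arrays were above background, and averaged 1.82 in WT skin and 2.86 in WT fat. *Ugt2a1*, best known from olfactory tissue, was higher in liver and skin than in fat by the probe used. Its other probes were each well above background on 6 liver, 0 skin and 0 fat arrays, so the skin level rests on the probe used. *Gsto1* and *Sult4a1* differed by less than the size required in every pair of tissues.

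**Figure D2:**
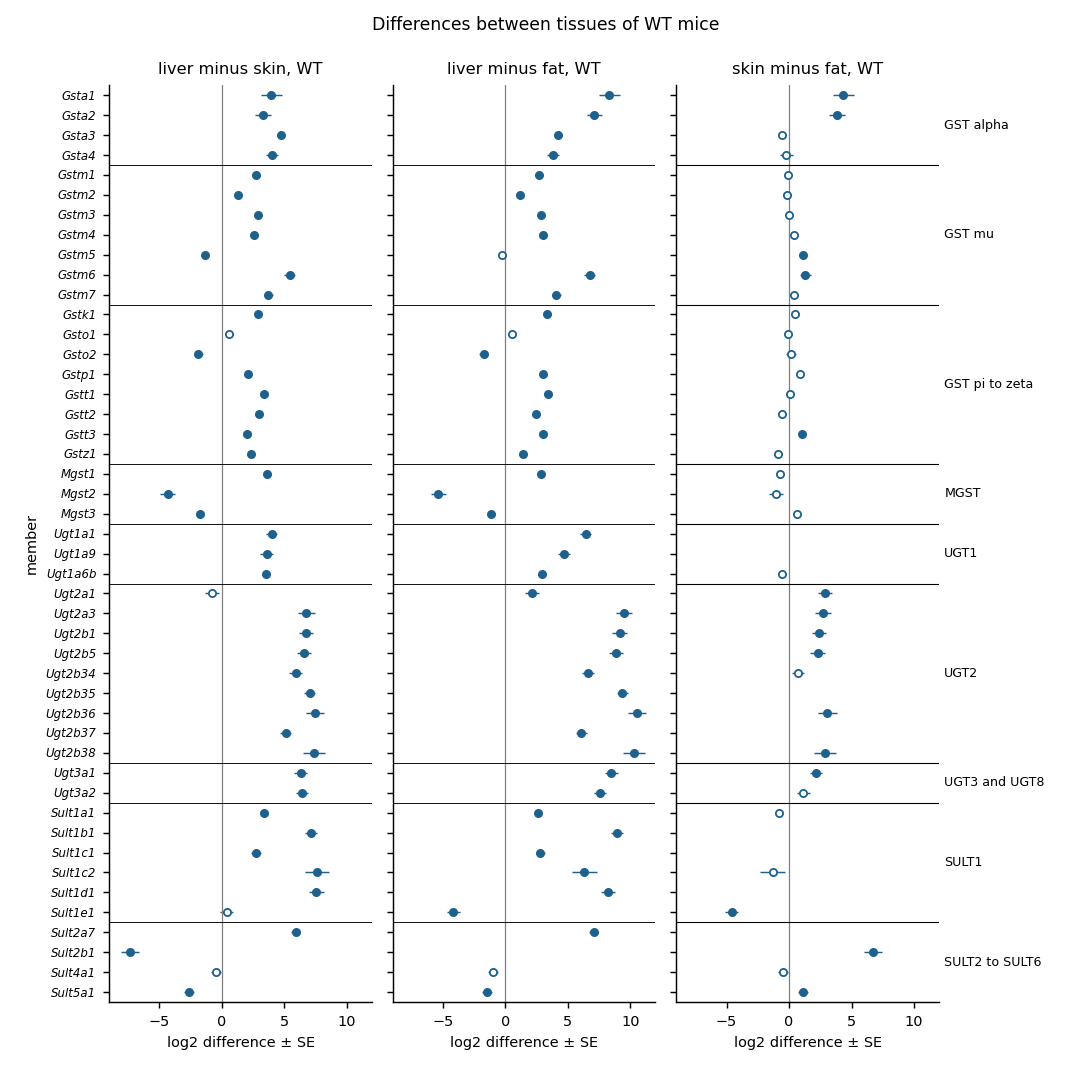
Log2 difference between tissues of WT mice (horizontal axis, points with SE) for each of the 46 enzymes tested in any tissue, grouped by family, with filled points where the difference was called. Nearly all points of the *Ugt* and *Sult1* families lie right of 0 in the first 2 panels, whereas *Mgst2* and *Gsto2* lie left of 0 in both and *Sult2b1*, not tested between liver and fat, lies left of 0 in the first.

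Hepatocyte markers were above background on skin and fat arrays. In fat some *Ugt* enzymes were highest and lowest on the same arrays as the marker *Alb* within each genotype, while *Ugt1a6b* and *Gstm1* were not. *Alb*, which encodes albumin, had 5.02, 6.71, 6.29 and 6.63 on KO skin arrays and 5.60, 6.43 and 5.45 on WT skin arrays. In liver it had 9.45, 9.60 and 10.08 on KO arrays and 9.80, 10.28 and 9.27 on WT arrays. On fat arrays it had 1.44, 4.96, 1.97 and 4.31 in KO and 2.59, 3.51 and 0.15 in WT, so it varied widely within both genotypes. All 13 hepatocyte markers measured were well above background on every liver array, 12 or 13 on skin arrays and 8 to 13 on fat arrays. Their summed scaled signal was 119 to 336 in KO skin and 144 to 280 in WT skin, and 14.95 to 73.5 in KO fat and 9.26 to 35.03 in WT fat. The median difference of these markers was 5.48 between WT liver and WT skin, beside 7.47 for *Ugt2b36* and 6.76 for *Ugt2a3*, both above background on every array of those groups. *Ugt2b36* had -4.40, -1.28, -3.53 and -3.93 in KO fat, and as with *Alb*, KO 2 was the highest of the 4 arrays and KO 1 the lowest. In WT fat both were highest on WT 3 and lowest on WT 4. Between KO 3 and KO 4 the order was reversed, with *Alb* at 1.97 and 4.31 and *Ugt2b36* at -3.53 and -3.93. Among the fat arrays *Ugt2b36* was well above background on KO 2, KO 3 and WT 3 alone, so its other fat values lie near background. The part of these transcripts in the *Ugt* levels of skin and fat was not tested. In bulk tissue, a different number of cells of a type and a different amount of RNA per cell cannot be told apart.

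**Figure D3:**
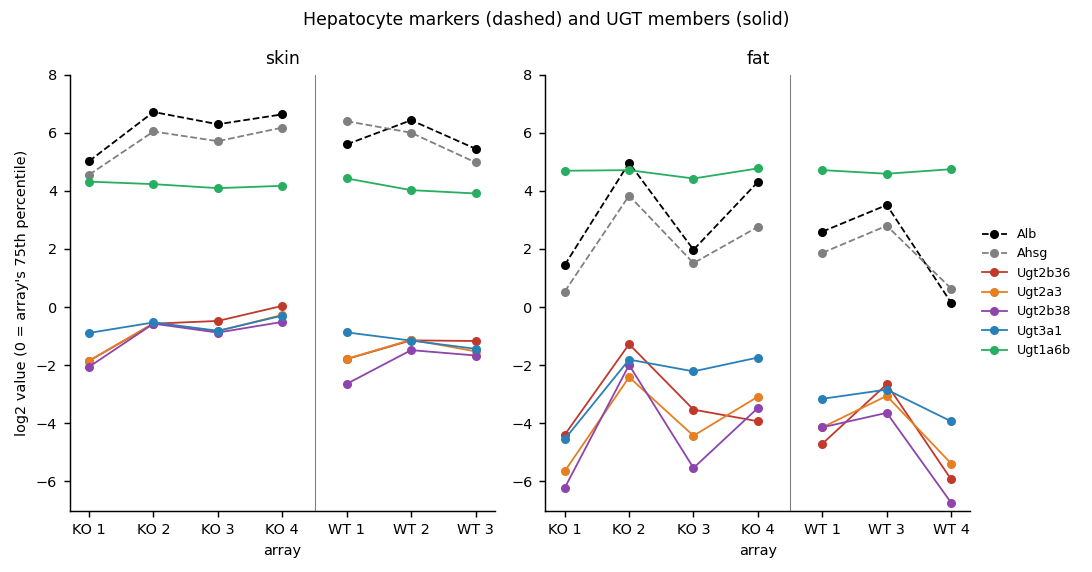
Log2 values of the hepatocyte markers *Alb* and *Ahsg* (dashed) and of 5 glucuronosyltransferases (solid) on skin and fat arrays, KO left of WT, with lines that only join a gene's points. In fat, *Ugt2b36*, *Ugt2a3*, *Ugt2b38* and *Alb* are highest on KO 2 and lowest on WT 4 or KO 1, while *Ugt1a6b* stays between 4.42 and 4.77.

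Promoters were searched for 2 motifs in RefSeq windows of build GRCm38.p6 that hold 250 bases before to 50 after each gene start. A promoter entry was found for 48 of the 54 enzymes, with 59 promoters in all. The antioxidant response element TGACNNNGC (either strand), the site of the factor NRF2, was in 4 of them (6.78%), beside 12.4% of all 32851 promoters. The 4 were those of *Gsta3*, *Gstm5*, *Gstm7* and *Mgst1*. The HNF1 site (palindromic, searched on both strands), known from liver promoters, was in none of the 59 and in 3 of all 32851. These are counts of letters in a short window.

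No enzyme was called different between KO and WT in any tissue. In skin, 0 of 37 passed the test in limma, beside 0.0148% of all genes (2 of 13497). At an unadjusted p below 0.05, 2 enzymes were higher and 1 was lower in KO, beside 2.85% and 5.02% of all genes. In liver, 0 of 44 passed, beside 0.0226% of all genes, with 0 higher and 2 lower at an unadjusted p below 0.05 (2.41% and 3.65% of all genes). In fat, 0 of 32 passed, beside 0.0131% of all genes, with 2 higher and 0 lower (4.81% and 3.12%). In the value table of fat 0 of 32 passed, beside 0.00656% of all genes, with 3 higher and 0 lower (6.49% and 5.2%). A higher KO mean was found for 24 of 44 enzymes in liver (49% of all genes) and a lower one for 20 (51%), while in fat 22 of 32 were higher (62.3% of all genes) and 10 lower (37.7%), and of the enzymes in the deposited values of fat 20 were higher (53.8%) and 12 lower (46.2%). In skin 18 of 37 were higher and 19 lower. The median KO minus WT difference of the enzymes tested was -0.08 in skin, 0.02 in liver and 0.28 in fat, beside -0.10, -0.00 and 0.08 for all genes. Tests on simulated data with these arrays recovered 28% (skin), 34% (liver) and 44% (fat) of genes changed by a log2 size of 1, so differences of the size seen here would mostly be missed. The simulation held 200 changed genes with log2 sizes from 1 to 6 and independent noise. Far fewer genes were called in the real fits, so recovery there could be lower.

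**Figure D4:**
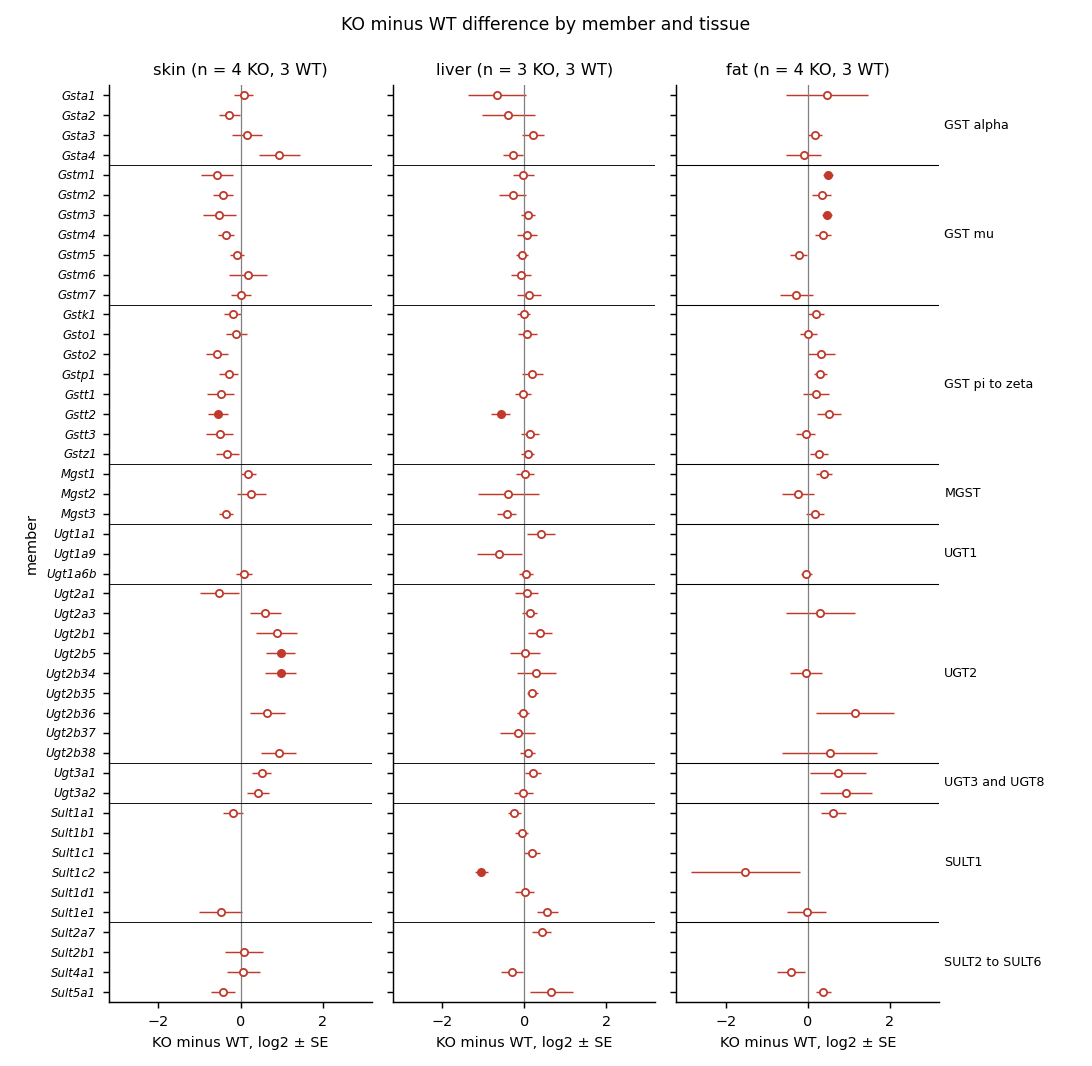
KO minus WT log2 difference (points with SE) of each enzyme tested in skin, liver and fat, grouped by family, with filled points at an unadjusted p below 0.05. In skin the *Ugt2* points lie mostly right of 0 and the *Gst* pi to zeta points left of 0, and in liver *Sult1c2* lies farthest left.

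In skin, the families leaned in different directions without any call. Of 7 *Ugt2* enzymes tested, 6 had a higher mean in KO skin (median difference 0.88), while all 8 tested of the pi, theta, omega, kappa and zeta classes had a lower mean (median -0.40). The second count was 7 of 8 with normexp correction, in the value table and without WT 1, where the median was -0.26. Without the dim arrays KO 1 and WT 1 its median was -0.11, beside -0.10 for all genes with all arrays in. Among all genes 39.4% had a higher and 60.6% a lower mean in KO skin. *Ugt2b1* (difference 0.88) entered the skin test through KO arrays alone. It was well above background on 3 of 4 KO and 0 of 3 WT skin arrays. For *Ugt2b34* those counts were 3 and 1 and for *Ugt2b5* 3 and 2. The *Ugt2* count and median thus depend partly on which enzymes entered the test. The mu class had 5 of 7 lower (median -0.36), but without the dim arrays KO 1 and WT 1 its median was 0.06, with 5 of 7 higher. KO skin also held hair follicle markers at another level: all 11 tested had a higher mean, with a median difference of 4.10 and a summed scaled signal of 525 to 2177 in KO skin, against 41.8 to 212 in WT skin. Of hepatocyte markers 10 of 12 had a higher mean (median difference 0.39). Endothelial markers had a lower mean in 6 of 6, skeletal muscle markers in 10 of 10 and adipocyte markers in 9 of 10. The part of these cell types in the enzyme values was not tested.

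*Ugt2b5* had -2.37, -1.46, -1.61 and -1.54 in KO skin and -3.49, -2.29 and -2.38 in WT skin. KO 1 lay within the WT range and the other KO arrays above it, and the difference was 0.98 (SE 0.355, adjusted p = 0.555 in limma). *Ugt2b34* had -2.48, -2.10, -2.24 and -2.04 in KO skin against -2.96, -4.17 and -2.45 in WT skin, so that the means differed by 0.98 (SE 0.378). *Ugt2b38* had -2.06, -0.57, -0.88 and -0.51 in KO skin against -2.64, -1.48 and -1.67 in WT skin, so that the means differed by 0.93 (SE 0.434). On all of these the dimmest KO array overlapped the WT arrays, and several of the values were not well above background. *Ugt3a1*, which in mice uses N-acetylglucosamine in place of glucuronic acid, had -0.89, -0.53, -0.82 and -0.30 in KO skin against -0.87, -1.15 and -1.44 in WT skin (difference 0.52, SE 0.232). *Gsta4*, the enzyme known for clearing the lipid oxidation product 4-hydroxynonenal, had 1.42, -0.07, -0.91 and -0.63 in KO skin against -1.14, -0.94 and -0.90 in WT skin. The mean difference of 0.95 (SE 0.504) rested on KO 1 and KO 2, since KO 3 and KO 4 lay at or near the WT values. The adjusted p of all these was 0.555 in limma.

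In skin 3 of 37 enzymes lay lower on all KO than on all WT arrays, beside 8.15% of all genes, and 0 of 37 lay higher on all KO arrays, beside 3.35%. *Gstt2*, of the theta class, had 0.17, 0.53, 0.60 and 1.07 in KO skin and 1.11, 1.10 and 1.21 in WT skin (difference -0.54, SE 0.236, adjusted p = 0.555 in limma). KO 4 came close to the WT arrays. *Mgst3* had 4.38, 4.17, 4.19 and 4.38 in KO skin against 4.74, 4.53 and 4.63 in WT skin (difference -0.36, SE 0.177), but another probe of the gene gave 0.14. *Gstm4* had -0.05, 0.15, -0.10 and 0.33 in KO skin against 0.44, 0.38 and 0.50 in WT skin (difference -0.36, SE 0.189). *Gsto2*, of a class that reduces dehydroascorbate, had -3.49, -3.04, -3.09 and -2.62 in KO skin against -2.10, -2.70 and -2.65 in WT skin, with 2 of the KO values not well above background (difference -0.57, SE 0.263, and 0.0016 with normexp correction). *Gstm2* had 4.004, 4.76, 4.25 and 4.71 in KO skin against 5.14, 4.79 and 4.65 in WT skin (difference -0.43, SE 0.252). *Sult2b1*, the skin enzyme, had 3.42, 2.54, 2.25 and 1.97 in KO skin and 3.41, 2.06 and 1.91 in WT skin, and the groups overlapped throughout (difference 0.08, SE 0.452, adjusted p = 0.94 in limma).

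In liver, the enzyme with the smallest p was *Sult1c2*, a cytosolic sulfotransferase. It had 2.12, 1.96 and 1.89 in KO liver and 3.19, 2.80 and 3.12 in WT liver. The groups did not overlap, and KO liver held 0.485 times the WT level (difference -1.05, SE 0.165, unadjusted p = 3.95e-04), which did not pass after adjustment over 13302 genes (adjusted p = 0.216 in limma). Over the alternatives tried, the difference stayed between -1.16 and -0.97 and the adjusted p between 0.141 and 0.902. *Gstt2* had 3.32, 3.56 and 3.78 in KO liver against 4.54, 4.01 and 3.83 in WT liver, again with no overlap (difference -0.57, SE 0.229). *Sult1a1*, the phenol sulfotransferase, had 6.66, 6.82 and 6.96 in KO liver against 7.04, 6.97 and 7.14 in WT liver (difference -0.24, SE 0.149). These were 3 enzymes whose KO arrays all lay lower, beside 6.22% of all genes, and 1 lay higher, beside 4.8% of all genes. That one was *Ugt2b35*, with 3.41, 3.54 and 3.54 in KO liver against 3.29, 3.36 and 3.23 in WT liver (difference 0.20, SE 0.135).

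The other named liver enzymes overlapped between the groups. *Mgst3* had 2.59, 2.77 and 2.06 in KO liver against 3.17, 2.89 and 2.65 in WT liver (difference -0.43, SE 0.237), and *Gsta4* had 2.78, 2.89 and 2.57 against 3.40, 3.12 and 2.55 (difference -0.28, SE 0.238). *Sult1e1* had 0.03, -0.49 and -0.73 in KO liver against -0.66, -0.93 and -1.30 in WT liver (difference 0.57, SE 0.255). *Sult2a7*, of the hydroxysteroid sulfotransferases, had 1.89, 1.399 and 1.19 in KO liver against 0.94, 0.95 and 1.31 in WT liver (difference 0.43, SE 0.224), *Ugt2b1* had 3.16, 3.03 and 3.76 against 2.55, 2.80 and 3.44, and *Sult5a1* had -1.36, -0.01 and 0.67 against -1.49, -0.55 and -0.64. The smallest adjusted p among these was 0.852 in limma, for *Sult1e1*.

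One liver array stood apart for several enzymes. *Gsta1* had 5.64, 4.83 and 2.74 in KO liver and 5.71, 4.67 and 4.82 in WT liver, *Gsta2* had 3.03, 2.44 and 0.49 against 2.93, 1.86 and 2.32, and *Ugt1a9* had -1.20, -1.61 and -3.07 against -0.63, -2.11 and -1.35. KO 3 was the lowest array for all of these. The same array had the lowest *Cyp2b9* (1.013, against 4.13 to 5.25 on the other liver arrays), a female-biased liver gene, and the highest *Hsd3b5* (5.74, against -0.97 to 1.68), a male-biased one. In KO liver as a group, all 7 male-biased genes tested had a higher mean (median difference 0.72) and all 8 female-biased genes a lower one (median -0.53), and their part in the enzyme values was not tested. Some keratinocyte transcripts were higher on KO 1, KO 2 and WT 3 than on the other liver arrays. *Lor*, of the cornified layer, was 3.29 and 5.34 on those KO arrays and 4.79 on WT 3. It was 0.61 on KO 3 and -0.43 and -0.27 on WT 1 and WT 2. *Krt5*, *Sbsn* and *Krtdap* had the same split. *Krt14* did not, with -5.64 on KO 1 and -5.66 on KO 3, and *Krt10* stayed between 0.09 and 0.42. *Krt1*, *Flg2*, *Dsg1a* and *Trp63* were not well above background on any liver array. Of 10 skeletal muscle markers, 9, 7 and 2 were above background on the KO liver arrays and 8, 1 and 9 on the WT liver arrays.

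In fat, the mu class enzymes *Gstm1* and *Gstm3* had the smallest p. *Gstm1* had 7.46, 7.46, 7.36 and 7.55 on KO arrays and 7.11, 6.91 and 6.88 on WT arrays, and *Gstm3* had 6.43, 6.42, 6.42 and 6.53 against 6.08, 5.94 and 5.91. All KO arrays lay above all WT arrays for both, by 0.49 (SE 0.129, fold 1.41, adjusted p = 0.493 in limma) for *Gstm1* and by 0.47 (SE 0.121, fold 1.39, adjusted p = 0.49 in limma) for *Gstm3*. *Mgst1* was the third enzyme without overlap, with 6.94, 6.75, 6.86 and 7.44 in KO fat against 6.48, 6.71 and 6.64 in WT fat (difference 0.39, SE 0.192), which makes 3 of 32, beside 6.55% of all genes, and 0 of 32 were lower without overlap, beside 2.81%. In the value table *Gstm1* had 15.80, 16.20, 15.84 and 16.06 in the KO columns and 15.79, 15.19, 15.34 and 15.41 in the 4 WT columns. *Gstm3* had 14.98, 15.33, 15.11 and 15.23 against 14.90, 14.44, 14.50 and 14.52. The table differences were 0.55 (SE 0.16, adjusted p = 0.306 in limma) and 0.57 (SE 0.141, adjusted p = 0.264). Over the alternatives tried on the scanner files, the adjusted p of *Gstm1* in limma stayed above that of the value table. Over the alternatives tried on the value table, the adjusted p in limma fell to 0.138 for *Gstm1* and 0.116 for *Gstm3*, without passing. A second *Gstm1* probe gave 0.47 in the scanner files. Macrophage markers had a lower KO mean in 7 of 8 in the scanner files (median -0.48) and in 8 of 8 in the value table (median -0.89), and their part in the enzyme values was not tested.

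The other fat enzymes named by p overlapped between genotypes in the scanner files. *Sult1a1* had 5.78, 4.91, 4.49 and 5.06 in KO fat against 4.72, 4.12 and 4.47 in WT fat (difference 0.62, SE 0.308), *Gstp1* had 6.84, 6.56, 6.41 and 6.76 against 6.30, 6.42 and 6.28 (0.31, SE 0.151), and *Sult5a1* had 1.21, 0.86, 0.82 and 1.04 against 0.89, 0.49 and 0.43 (0.38, SE 0.173). KO 1 was the highest array for these and for *Gstt2*, which had 2.98, 1.79, 2.08 and 2.05 in KO fat against 1.58, 1.67 and 1.87 in WT fat. *Sult4a1* had -3.41, -2.62, -2.51 and -1.95 in KO fat against -2.08, -2.60 and -1.97 in WT fat, and *Gstm5* had 2.35, 2.04, 1.80 and 2.11 against 1.93, 2.60 and 2.34. *Sult1c2* was above background on KO 2 (-3.25), WT 3 (-1.20) and WT 4 (-2.08) alone, so its difference of -1.52 (SE 1.33) rests on few arrays. *Gstm7* (-0.28) and *Mgst2* (-0.23) changed sign under some settings and have no settled direction. *Gstm7* had -1.85, -1.81, -2.19 and -1.99 in KO fat against -2.54, -0.68 and -1.83 in WT fat, and *Mgst2* had 1.98, 2.18, 3.16 and 3.18 against 2.25, 3.09 and 3.24.

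In the value table, whose 4 WT columns include fat WT 2, *Sult1a1* had 14.32, 13.54, 13.04 and 13.48 in the KO columns against 13.45, 12.45, 12.64 and 13.03 in the WT columns (difference 0.70, SE 0.305, adjusted p = 0.424 in limma). *Gstt2* had 11.43, 10.29, 10.50 and 10.30 against 10.08, 10.09, 10.06 and 10.26 (0.51, SE 0.249), and *Mgst1* had 15.63, 15.53, 15.52 and 15.52 against 15.48, 15.19, 15.31 and 15.39 (0.21, SE 0.105). All KO columns lay above all WT columns for *Gstm1*, *Gstm3*, *Gstt2* and *Mgst1*, or 4 of 32, beside 4.35% of all genes, and 0 of 32 lay below, beside 2.76%. The table differences of *Sult4a1* (-0.41), *Sult1c2* (-1.05), *Gstm7* (-0.36), *Mgst2* (-0.29) and *Ugt2b34* (-0.30) had overlapping groups. Among them *Sult4a1* had 5.59, 6.35, 6.38 and 6.84 in KO fat against 6.83, 6.58, 6.39 and 7.003 in WT fat, and *Sult1c2* had 3.76, 5.55, 3.88 and 5.06 in KO fat against 3.25, 5.13, 7.37 and 6.69 in WT fat. *Ugt2b34* had 5.11, 5.50, 5.12 and 4.31 in KO fat against 5.42, 5.86, 5.69 and 4.28 in WT fat. The *Ugt2* family had a median difference of 0.42 in the scanner files and of -0.20 in the value table, where *Ugt2b36* was 4.84, 7.23, 5.25 and 4.74 in the KO columns against 4.36, 7.07, 6.17 and 3.93 in the WT columns. Hepatocyte markers also differed between the sources: 12 of 12 had a higher mean in KO fat in the scanner files (median 0.91), and 7 of 12 in the value table (median 0.18). Their part in the *Ugt2* values was not tested.

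**Figure D5:**
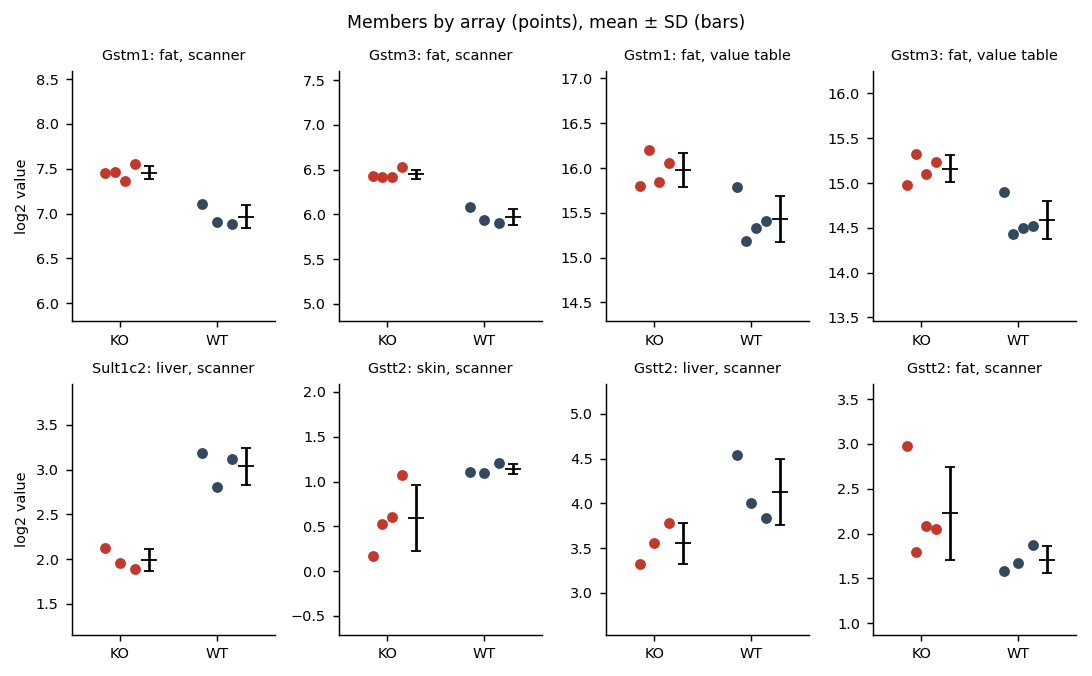
Log2 values by array for *Gstm1* and *Gstm3* in fat (scanner files and value table), *Sult1c2* in liver and *Gstt2* in the 3 tissues, with KO left of WT and mean ± SD beside the points. KO and WT points do not overlap in any panel but that of *Gstt2* in fat, where KO 2 (1.79) lies below WT 4 (1.87).

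The KO effect was not shown to differ between tissues for any enzyme. Of the enzymes tested, 0 of 46 were called for skin minus liver, 0 of 38 for skin minus fat and 0 of 45 for liver minus fat in limma, beside 0.202%, 0.423% and 0.0564% of all genes. At an unadjusted p below 0.05 the counts were 0, 5 and 2, beside 8.06%, 11.9% and 4.71% of all genes. *Gstt2*, lower on KO arrays of skin and liver and higher on those of fat, had the smallest p in both contrasts with fat. Its effect in skin minus that in fat was -1.06 (SE 0.367, adjusted p = 0.297 in limma), and in liver minus fat -1.09 (SE 0.379, adjusted p = 0.81). For skin minus fat the next were *Gstm4* (-0.72, SE 0.283), *Gstm1* (-1.06, SE 0.427), *Gstm3* (-0.99, SE 0.41) and *Sult1a1* (-0.80, SE 0.36). For liver minus fat they were *Sult1a1* (-0.86), *Mgst3* (-0.61) and *Gstm2* (-0.62), and for skin minus liver *Sult5a1* (-1.09), *Gsta4* (1.22), *Gstt3* (-0.66) and *Gstp1* (-0.48). *Gsto2* was also among the 5 with the smallest p for skin minus liver and *Sult1b1* for liver minus fat, but no size is given: *Gsto2* was not well above background on any liver array, and *Sult1b1* was on 1 of 7 fat arrays.

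Behind the skin minus fat differences, *Gstm1* had 5.49, 6.82, 6.36 and 6.72 in KO skin against 7.59, 6.61 and 6.55 in WT skin, and *Gstm3* had 4.56, 5.95, 5.33 and 5.84 in KO skin against 6.66, 5.61 and 5.54 in WT skin. The dimmest KO skin array, KO 1, was the lowest and WT 1 the highest for both, while the remaining arrays of both genotypes overlapped. *Sult1a1* had 3.098, 3.60, 3.22 and 3.91 in KO skin against 3.52, 3.81 and 3.59 in WT skin, and *Gstm4* had 0.50, 0.35, 0.11 and 0.79 in KO fat against 0.19, 0.15 and -0.14 in WT fat. Among the other differences, *Sult1b1* had 3.15, 3.08 and 3.38 in KO liver against 3.13, 3.29 and 3.36 in WT liver. *Gstt3* had 1.42, 2.39, 2.32 and 2.55 in KO skin against 3.18, 2.41 and 2.42 in WT skin, and 4.65, 4.78 and 5.06 in KO liver against 5.09, 4.51 and 4.44 in WT liver. *Gstp1* had 6.69, 7.10, 6.78 and 7.25 in KO skin against 7.56, 6.95 and 7.20 in WT skin, and 9.20, 9.43 and 9.92 in KO liver against 9.33, 9.66 and 8.97 in WT liver. *Gstm2* had 5.95, 6.37 and 5.30 in KO liver against 6.55, 6.28 and 5.64 in WT liver, and 5.18, 5.06, 5.29 and 5.87 in KO fat against 5.14, 5.12 and 4.79 in WT fat. In each of these tissues the genotypes overlapped for *Gstp1* and *Gstm2*.

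The other genes of these pathways had no call either: 0 passed in limma in skin, liver, fat or the value table in any of 6 lists (glutathione supply, glucuronide cofactor, sulfate cofactor, conjugate export, other conjugation enzymes and transcriptional regulators). In WT tissue, 6 of 9 export genes tested were called higher in liver than in skin and 3 lower, and 10 of 13 genes of other conjugation reactions were called higher and 0 lower, beside 24.4% and 23.2% of all genes. At an unadjusted p below 0.05, the glutathione supply list had 3 of 10 genes in fat and 4 of 10 in the value table, counting both directions, beside 4.81% higher and 3.12% lower of all genes in fat and 6.49% and 5.2% in the value table. *Gclm*, the modifier subunit of the enzyme that starts glutathione synthesis, averaged -2.64 ± 0.21 in KO fat (SD, n = 4) and -1.59 ± 0.67 in WT fat (SD, n = 3). The gap of -1.05 (SE 0.308) had an adjusted p of 0.546 in limma. *Txnrd1*, thioredoxin reductase, differed by -0.56 (SE 0.213) and *Gsr*, glutathione reductase, by -0.41 (SE 0.161).

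All 6 export genes tested in fat had a lower KO mean, beside 37.7% of all genes, with a median difference of -0.28, and 5 of 6 had one in the value table (median -0.42), beside 46.2%. The summed scaled signal of all 10 export genes of the list, tested or not, was 17.9, 17.8, 16.6 and 19.8 on KO arrays and 39.9, 34.3 and 22.0 on WT arrays. It was highest on the 2 WT arrays that were also highest in epididymis and testis markers, whose part was not tested. *Abcc3*, an efflux pump for glucuronides, averaged 1.17 ± 0.08 in KO fat (SD, n = 4) and 1.59 ± 0.22 in WT fat (SD, n = 3), and *Abcg2*, which exports sulfates, averaged 2.03 ± 0.31 and 3.59 ± 1.47. In liver, *Maff*, a small Maf protein that can pair with NRF2, averaged -1.26 ± 0.06 in KO and -0.07 ± 0.29 in WT (SD, n = 3 each, difference -1.19, SE 0.182, adjusted p = 0.206 in limma). *Arsa*, the lysosomal arylsulfatase, differed by -0.64 (SE 0.141) and *Ppara*, a nuclear receptor of fatty acids, by -0.68 (SE 0.175). In skin, *Ggt1*, which cleaves extracellular glutathione, averaged -1.74 ± 1.72 in KO (SD, n = 4) and -4.16 ± 0.72 in WT (SD, n = 3), and 15 of 18 regulators had a lower KO mean (median -0.36), beside 60.6% of all genes.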

How the data were processed

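Each of 21 RNA samples was labelled with Cy3 and hybridised to an Agilent mouse array. The processed intensities in the deposited scanner files were made with Agilent Feature Extraction 10.7.3.1, per the submitters' processing notes, and are already background-subtracted per the file headers. The log2 values of the deposited value table were made by the authors. The submitters' processing notes also name limma, but the table's normalization and centring stay unknown. Its column medians ran from 5.76 to 6.00, and it was tested only within itself.

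Each array's log2 processed intensity was taken relative to its 75th percentile, so that precision is limited by the number of arrays and by signal over background. Spots of a probe were averaged, and the probe with the highest mean stood for a gene with several. Genes well above background on at least 3 arrays were tested with limma 3.58.1 in R 4.3.3, with Benjamini-Hochberg adjustment over all genes tested. KO was compared with WT within each tissue, and tissues and differences of KO effects in a fit over all 6 groups. KO and interaction calls needed an adjusted p below 0.05, and tissue calls also a log2 difference of at least 1. The fits were tested on simulated data with 200 changed genes. Alternatives were normexp correction with an offset of 50, quantile normalization, the value table, no filter, slide or replicate number as a block, and leaving out arrays.

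The fat WT 2 scanner file was left out: it correlated with the deposited log2 values of its sample at 0.779, and the other files with theirs at 0.972 or more. Replicate numbers were not used as pairs in the main fits. Deviations from the group means of same-numbered arrays correlated between -0.23 and 0.19 for KO with WT of a tissue. Across tissues within a genotype they correlated between -0.15 and 0.24, and no pair of groups had every correlation over 0.1. With 2 to 4 array pairs per pair of groups, this cannot exclude that same-numbered arrays share a mouse. No 2 arrays correlated above 0.986, so none was treated as a duplicate. Value-table columns of other samples numbered 0. Per-array values are given for the 5 enzymes higher and 5 lower in KO with the smallest p in each tissue, for up to 5 with the largest measured difference to the nearer tissue and for up to 5 per difference of effects. The remaining enzymes are given as counts, differences or tissue order. The *Gsta1*, *Gsta2* and *Ugt1a9* values of KO 3 in liver, and those set beside albumin, were chosen after they were seen. The enzymes and the lists were chosen with earlier results of these data known.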

Additional observations from a re-analysis of the deposited data

Results flagged for a closer look

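Of 33 groups of 4 samples checked, 3 held a sample far from the others by Dixon's test, where chance would mark about 5%. *Ugt2b5* was -2.37 on skin KO 1, below the other KO skin arrays at -1.61 to -1.46, and was not well above background there. *Gstm3* was 6.53 on fat KO 4, above the other KO fat arrays at 6.42 to 6.43, a small gap among close values. *Gstt2* was 10.26 in the value table's column of fat WT 4, above the other WT columns at 10.06 to 10.09.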

How the results depend on the processing

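The count of enzymes called stayed at 0 for KO against WT in every tissue, and for the differences of KO effects, under all alternatives run. The number called for skin against fat was 25 (24 higher, 1 lower) with no filter on dim probes, against 15 with it, because more enzymes were tested. Leaving out 1 array at a time gave 12 to 17 calls for skin against fat, 41 to 43 for liver against fat and 42 for liver against skin. With replicate number as a block, skin against fat had 12 calls and both liver contrasts 42, and no KO call appeared. The slide could not be fitted as a random block in liver, and its correlation was 0.092 in skin and -0.001 in fat. Each slide of skin or liver held 1 genotype of that tissue, so slide and genotype cannot be told apart there. Among the fat arrays used, only slide 3 held both genotypes (KO 2 and WT 4). In fat, too, slide and genotype can thus hardly be told apart.

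Reversed directions were those of *Gsto2* in skin with normexp correction (0.00158), *Mgst2* in fat with the fat WT 2 scanner file (0.0973) and *Gstm7* in fat within slide 3 (0.0142). Leaving out 1 array gave -0.71 to 0.22 for *Gstm7*. The cause was not tested. The skin against fat calls of *Sult5a1* and *Gstm5* were lost under 5 and 4 settings, among them 0.99 with the block for *Sult5a1* and 0.90 with quantile normalization for *Gstm5*. Dim probes limit the *Ugt* values in skin and fat.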
